A study of Mus musculus with 18 samples.

Results

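The 10 genes described here encode the classic NADPH-producing enzymes and the NAD kinases of the mouse cell: *G6pdx*, *Pgd*, *Idh1*, *Me1* and *Nadk*, whose products act in the cytosol, and *Idh2*, *Me2*, *Me3*, *Nnt* and *Nadk2*, whose products act in mitochondria. They were taken by gene name from a read-count table of 35275 genes, and all 10 were found. RNA-seq was run on malignant peripheral nerve sheath tumor (MPNST) cell lines, each grown from a separate tumor and sequenced in 3 cultures, giving 18 libraries from 6 lines. Tumors were raised in wild-type 129 Sv/Jae mice by injecting the sciatic nerve with an adenovirus that carried Cas9 and guide RNAs, either against *Nf1* and *p53* (genotype Nf1-/-;p53-/-, the *Nf1*/*p53* dKO, 3 lines) or against *Nf1* and *Cdkn2a* (Nf1-/-;Cdkn2a-/-, the *Nf1*/*Cdkn2a* dKO, 3 lines). Both genotypes therefore carried the *Nf1* edit, and no line without it was sequenced. All cultures were untreated and grown in DMEM with 10% FBS.

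NADPH is the reduced cofactor that cells spend on regenerating glutathione and thioredoxin and on making fatty acids, sterols and deoxyribonucleotides. In the cytosol it is made by the oxidative branch of the pentose phosphate pathway (PPP), by isocitrate dehydrogenase 1 and by malic enzyme 1. Mitochondria keep a pool of their own, fed by isocitrate dehydrogenase 2, by the mitochondrial malic enzymes and by the proton-driven transhydrogenase, and in each compartment an NAD kinase phosphorylates NAD+ to NADP+ and so sets the size of the pool.

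Library totals ran from 19560535 to 28312207 counts (median 23149777), and every gene but *Me3* had at least 557 counts in each library. *Trp53* was at 58.7 to 94.1 CPM (counts scaled to a library of fixed size with TMM factors) in the *Nf1*/*p53* dKO lines and at 185 to 247 CPM in those without *Cdkn2a* (adjusted p = 0.0361, edgeR), whereas *Nf1* (12.7 to 70.0 CPM) and *Cdkn2a* (42.9 to 392 CPM) overlapped between the genotypes. Of the Schwann cell genes, *Sox10* did not exceed 0.099 CPM in any line and the summed level of 8 markers was 6.03 to 94.1 CPM in *Nf1*/*p53* dKO and 2.74 to 6.87 CPM in *Nf1*/*Cdkn2a* dKO. The mesenchymal marker *Vim* was at 4727 to 10207 CPM, and the labels call the cells mesenchymal. *Nf1*/*p53* dKO line 3 had 204 CPM of the muscle regulator *Myod1* (at most 1.75 CPM elsewhere). The main values that rest on this line are given with and without it. Muscle RNA was not limited to that line. *Myf5* was at 28, 24.2 and 27.7 CPM in *Nf1*/*p53* dKO lines 1 to 3 and at most 0.0156 CPM in *Nf1*/*Cdkn2a* dKO. Its adjusted p was 0.00672 (edgeR). *Des* was at 21.6, 1.3 and 86.6 CPM against at most 0.529 CPM. Mean root-mean-square log2 differences to the other lines of the genotype were 0.668, 0.697 and 0.766 for *Nf1*/*p53* dKO lines 1 to 3. *Xist*, the RNA of the inactive X chromosome, was at 360 to 780 CPM in all 3 lines of the *Nf1*/*p53* dKO, at 399 CPM in *Nf1*/*Cdkn2a* dKO line 3, and at most 0.188 CPM in the remaining pair, while the Y-linked *Ddx3y* was at 80.5 and 79.1 CPM in *Nf1*/*Cdkn2a* dKO lines 1 and 2 and at most 0.0141 CPM in the other lines.

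Promoter sequence was looked at for *G6pdx*, *Pgd* and *Idh1*, the cytosolic dehydrogenases with the highest fold changes below. RefSeq windows of 250 bases before the start site (build GRCm38.p6) were at hand for 7 of the 10 genes, in 11 windows; *Me2*, *Nnt* and *Nadk2* had none. The core of the antioxidant response element, the site bound by NRF2 (letters TGACNNNGC, searched on both strands), was in 10.2% of all 32851 promoter windows and in 1 of the 11, that of *G6pdx*. The GC box (GGGCGG, both strands) was in 32.7% of all windows and in 7 of the 11. Those 7 windows were 60.4 to 72% G and C, against a median of 52.4% over all windows. The part of base composition in the GC box count was not tested. The E-box (CACGTG) was in 6.02% and in 1 of the 11, one of those of *Nadk*, and the CCAAT box was in 33.8% and in 5 of the 11. The runs below show the antioxidant response element core of *G6pdx* in capitals, read here from its reverse strand, and the GC boxes of *Pgd* and *Idh1* in capitals; they are printed 5′ to 3′ on the minus strand, from chrX:74428918-74428947, chr4:149166772-149166955 and chr1:65186501-65186682, and leave out annotated exons except in the *G6pdx* run.
G6pdx: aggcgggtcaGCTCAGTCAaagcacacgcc
Pgd: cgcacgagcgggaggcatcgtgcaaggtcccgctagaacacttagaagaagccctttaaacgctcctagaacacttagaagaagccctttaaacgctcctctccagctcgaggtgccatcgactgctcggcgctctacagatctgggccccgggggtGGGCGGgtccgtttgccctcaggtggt
Idh1: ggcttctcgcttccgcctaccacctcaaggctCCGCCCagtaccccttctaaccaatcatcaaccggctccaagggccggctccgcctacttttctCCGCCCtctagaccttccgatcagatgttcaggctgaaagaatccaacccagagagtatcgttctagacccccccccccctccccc
The match at *G6pdx* begins 57 bases before the RefSeq start. A match in letters says nothing of binding in these lines, and the absence of these letters from the *Pgd* and *Idh1* windows says nothing of sites elsewhere.

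In these cultured lines a higher count can mean more RNA per cell or more cells that express the gene, which cannot be told apart. The comparison of the genotypes asked whether the transcripts of the NADPH sources differed between tumors that lost *p53* and tumors that lost *Cdkn2a*. All 5 cytosolic genes had higher fitted levels in *Nf1*/*Cdkn2a* dKO, with log2 fold changes of 0.24 to 1.35 (median 0.48), and all 5 mitochondrial genes had lower ones, with log2 fold changes of -0.71 to -0.08 (median -0.19). These signs held under each of the scalings tried (DESeq2 size factors, upper quartile and raw totals), but those of *Idh2*, *Me3* and *Nnt* turned when 1 line was left out. Over all 15207 genes tested the median was -0.02, and 48.2% of log2 fold changes were above 0. No single gene of the 10 passed an adjusted p of 0.05 in edgeR's quasi-likelihood test on the 6 lines, where 1.80% of all genes tested did. At an unadjusted p of 0.05, 4 of the 10 passed (*G6pdx*, *Pgd*, *Idh1* and *Me2*), where 22.4% of all genes did, and DESeq2 on the same 6 lines also called 0 of 10 against 11.8% of all genes. The 3 lines of one genotype lay wholly above those of the other for *Pgd* and *Idh1*, and wholly below for *Me2*: 2 of 10 genes against 14.8% of all genes in the higher direction, and 1 of 10 against 16.6% in the lower.

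The test on 6 lines and a test on 18 cultures gave different answers for the same genes. With the line as a random effect in limma-voom, 4 of the 10 were called (*G6pdx*, adjusted p = 0.0173; *Pgd*, 0.0108; *Idh1*, 0.00127; *Me2*, 0.0017) where 15.7% of all genes were. That fit takes a single correlation between cultures of a line for all genes. For these 4 genes culture-to-culture spread was 0.277 to 2.95% of the sum of squares of log2 CPM, against a median of 12.7%. The shared correlation may therefore understate the spread between lines for them. Treating the 18 cultures as separate samples in edgeR called 7 of 10, adding *Me1*, *Nadk* and *Nadk2*, where 46.5% of all genes were called. Cultures of 1 line share a tumor and are not separate tumors. The study named *Idh1* and the PPP transcripts from these same libraries, so their direction here is not independent evidence.

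**Figure D1:**
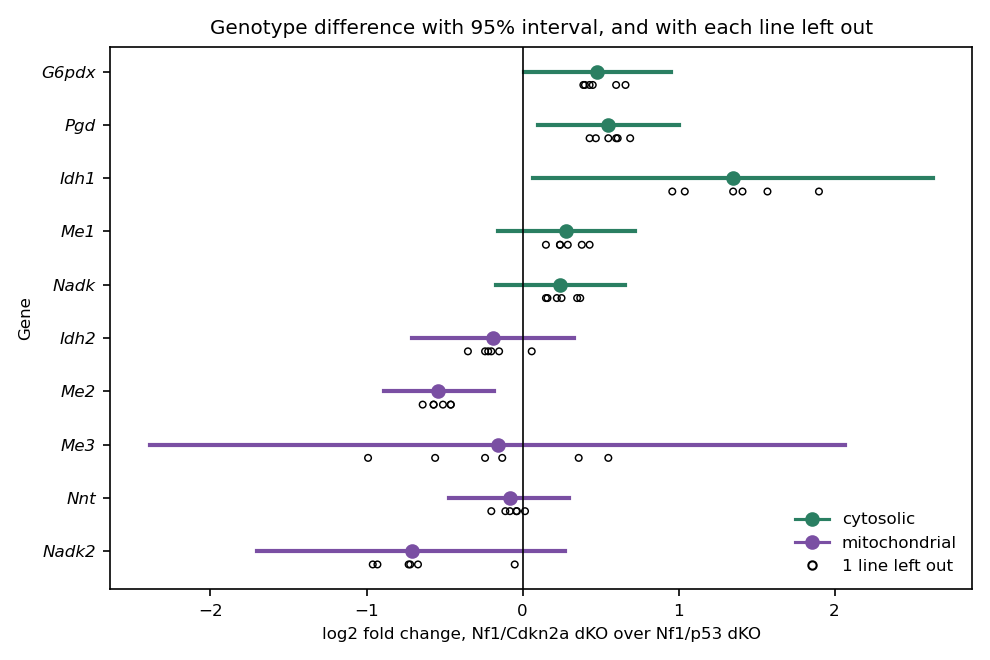
Log2 fold changes of the 10 genes (x axis, *Nf1*/*Cdkn2a* dKO over *Nf1*/*p53* dKO) by gene (y axis), with 95% intervals from edgeR on 6 lines; filled points are the fitted values, colored by compartment, and open points are the fits with 1 line left out. The 5 cytosolic genes lie above 0 and the 5 mitochondrial genes below it, and the open points of *Idh2*, *Me3* and *Nnt* fall on both sides of 0.

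*G6pdx* (X:74409483-74429194) encodes glucose-6-phosphate dehydrogenase, the entry enzyme of the oxidative PPP. Its level was 155, 115 and 108 CPM in *Nf1*/*p53* dKO lines 1 to 3 and 185, 196 and 147 CPM in *Nf1*/*Cdkn2a* dKO lines 1 to 3. The genotypes overlapped, because *Nf1*/*Cdkn2a* dKO line 3 was below *Nf1*/*p53* dKO line 1. The fold change was 1.40 (95% interval 1.01 to 1.93, adjusted p = 0.214, edgeR). The lines with Y-linked RNA, *Nf1*/*Cdkn2a* dKO lines 1 and 2, had the highest levels of this X-linked gene, and the 4 lines with *Xist* RNA had 108 to 155 CPM. *Xist* and Y-linked RNA were partly aligned with genotype, which bears on the comparison of every gene here. The part of sex in the genotype differences was not tested, for *G6pdx* or for any other gene. An exon of *Ikbkg* overlaps an exon of *G6pdx* by 278 bases on the opposite strand, and the counting is not stated to use strand, so reads from that stretch could belong to either gene. The retrogene *G6pd2* had 0 counts in every library.

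*Pgd* (4:149149991-149166771) encodes 6-phosphogluconate dehydrogenase, the second NADPH-producing step of the same branch, and had the highest level per length of the longest coding transcript of the 10 genes in every line, though not over the union of its exons. Its levels were 257, 207 and 260 CPM in *Nf1*/*p53* dKO, against 361, 414 and 287 CPM in *Nf1*/*Cdkn2a* dKO. All 3 *Nf1*/*Cdkn2a* dKO lines were above all 3 *Nf1*/*p53* dKO lines, the closest pair being line 3 of each genotype. The cultures of *Nf1*/*Cdkn2a* dKO line 1 ran from 330 to 385 CPM and those of line 3 from 284 to 288 CPM. With 1 line left out, the log2 fold change stayed between 0.43 and 0.69. *Pgls*, which encodes the lactonase between the pair of dehydrogenases, was at 54.2 to 93.3 CPM against 89.0 to 116 CPM (log2 fold change 0.48 ± 0.22 SE, adjusted p = 0.268, edgeR).

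*Idh1* (1:65158616-65186500) encodes the isocitrate dehydrogenase of the cytosol and peroxisomes and had the widest range between lines of the 9 well-measured genes. Levels were 105, 63.8 and 24.1 CPM in *Nf1*/*p53* dKO, against 113, 152 and 227 CPM in *Nf1*/*Cdkn2a* dKO. The groups did not overlap, but *Nf1*/*p53* dKO line 1 and *Nf1*/*Cdkn2a* dKO line 1 were close, with cultures of 104 to 109 CPM and 106 to 118 CPM. The fold change was 2.54 (95% interval 1.05 to 6.17, adjusted p = 0.204, edgeR). It fell to a log2 value of 0.96 without *Nf1*/*p53* dKO line 3 and to 1.04 without *Nf1*/*Cdkn2a* dKO line 3, from 1.35 with all lines, and rose to 1.90 without *Nf1*/*p53* dKO line 1. Within a line the 3 cultures were alike, and culture-to-culture spread made up 0.277% of the sum of squares of log2 CPM over the 18 cultures, against a median of 12.7% over all genes tested.

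*Me1* (9:86581371-86695953) encodes cytosolic malic enzyme, which makes pyruvate and NADPH from malate. Its levels were 108, 126 and 85.6 CPM in *Nf1*/*p53* dKO and 138, 113 and 138 CPM in *Nf1*/*Cdkn2a* dKO. The lines overlapped, and the log2 fold change of 0.28 ± 0.18 SE did not pass the test (adjusted p = 0.41, edgeR). *Nadk* (4:155562378-155591001), the cytosolic NAD kinase, was at 225, 240 and 296 CPM against 341, 301 and 259 CPM. Its lines overlapped too (log2 fold change 0.24 ± 0.17 SE, adjusted p = 0.452, edgeR).

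**Figure D2:**
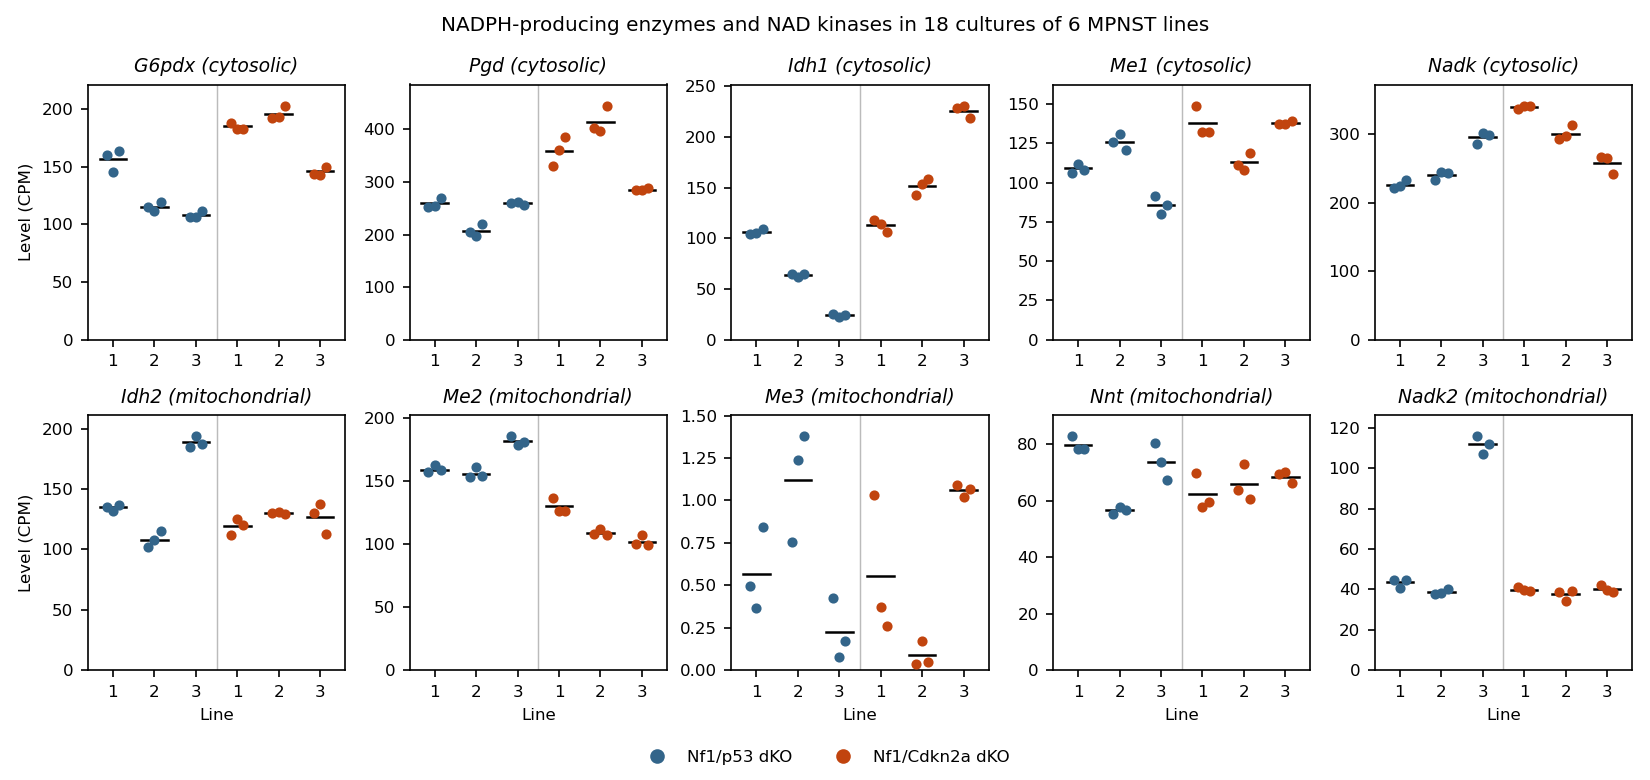
Level in CPM (y axis, from 0, a separate scale for each gene) in the 3 cultures of each line (x axis, line number within genotype; blue, *Nf1*/*p53* dKO; orange, *Nf1*/*Cdkn2a* dKO), with a bar at the mean of each line. Cultures of a line lie close together, *Idh1* falls to 24.1 CPM and *Nadk2* rises to 112 CPM in *Nf1*/*p53* dKO line 3, and *Me3* stays below 1.4 CPM in every culture.

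*Me2* (18:73769903-73815449) encodes the mitochondrial NAD(P)+-dependent malic enzyme, which uses NAD+ as well as NADP+. Its levels were 159, 156 and 182 CPM in *Nf1*/*p53* dKO, against 130, 110 and 103 CPM in *Nf1*/*Cdkn2a* dKO. Every *Nf1*/*Cdkn2a* dKO line was below every *Nf1*/*p53* dKO line, and of the 10 genes it had the smallest unadjusted p. The fold change was 0.69 (95% interval 0.54 to 0.88, adjusted p = 0.106, edgeR), and leaving out 1 line gave log2 fold changes of -0.64 to -0.46. Genotype took 81.7% of the sum of squares of log2 CPM over the 18 cultures for *Me2*, against a median of 22.8% over all genes tested, and the differences among lines of a genotype took 16.8%.

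*Idh2* (7:80094846-80115392), the NADP+-dependent isocitrate dehydrogenase of mitochondria, was at 134, 108 and 189 CPM in *Nf1*/*p53* dKO and at 119, 130 and 127 CPM in *Nf1*/*Cdkn2a* dKO. The *Nf1*/*Cdkn2a* dKO lines lay inside the range of the *Nf1*/*p53* dKO lines. The log2 fold change of -0.19 ± 0.22 SE (adjusted p = 0.63, edgeR) became 0.059 without *Nf1*/*p53* dKO line 3, the highest line.

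*Nnt* (13:119335448-119408997) encodes the inner-membrane transhydrogenase, which reduces NADP+ with NADH. It was at 79.0, 56.5 and 73.8 CPM in *Nf1*/*p53* dKO and at 62.5, 66.1 and 68.8 CPM in *Nf1*/*Cdkn2a* dKO, so that the genotypes overlapped. The fold change was 0.94 (95% interval 0.72 to 1.23, adjusted p = 0.787, edgeR), and the log2 value moved from -0.08 to 0.016 without *Nf1*/*p53* dKO line 1. The reference genome is that of C57BL/6J, a strain known to lack several *Nnt* exons, so reads of the 129 Sv/Jae transcript from those exons would have no annotated place to be counted. Another protein-coding entry named *Nnt* overlaps this one on the same strand, by up to 879 bases of an exon, and is not among the counted genes. Its effect on the *Nnt* count was not tested.

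*Me3* (7:89632392-89854359), the NADP+-dependent malic enzyme of mitochondria, was close to absent, with 1 to 31 counts in a library. Its levels were 0.554, 1.12 and 0.221 CPM in *Nf1*/*p53* dKO and 0.545, 0.0865 and 1.06 CPM in *Nf1*/*Cdkn2a* dKO. No genotype difference was detectable at this depth (fold change 0.90, 95% interval 0.19 to 4.21, adjusted p = 0.936, edgeR), and the log2 fold change turned from -0.16 to 0.55 without *Nf1*/*p53* dKO line 2 and to 0.36 without *Nf1*/*Cdkn2a* dKO line 2.

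*Nadk2* (15:9071260-9110891), the mitochondrial NAD kinase, differed in 1 line. Its levels were 42.9, 38.7 and 111 CPM in *Nf1*/*p53* dKO and 40.0, 37.5 and 40.4 CPM in *Nf1*/*Cdkn2a* dKO. The 3 cultures of *Nf1*/*p53* dKO line 3 (107 to 116 CPM) were all above the 15 others, which ran from 34 to 44.6 CPM. The log2 fold change of -0.71 ± 0.41 SE (adjusted p = 0.355, edgeR) was -0.05 without that line. In the same line *Idh2*, *Me2*, *Nadk* and *Pgd* were at their highest among the *Nf1*/*p53* dKO lines, and *Idh1*, *G6pdx* and *Me1* were at their lowest.

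Differences among lines of one genotype were then tested against the spread between cultures. In *Nf1*/*p53* dKO, all 10 genes differed among the 3 lines, where 79.7% of all genes tested did. In *Nf1*/*Cdkn2a* dKO 7 of the 10 did, where 54.2% of all genes did; the 3 that did not pass were *Idh2* (adjusted p = 0.395), *Nnt* (0.518) and *Nadk2* (0.562), all mitochondrial (edgeR's quasi-likelihood test over 9 cultures). The highest line exceeded the lowest by 4.37 times for *Idh1* and 2.88 times for *Nadk2* in *Nf1*/*p53* dKO, and by 2.02 and 1.08 times in *Nf1*/*Cdkn2a* dKO. *Idh2* spanned 1.75 times in *Nf1*/*p53* dKO and 1.10 times in *Nf1*/*Cdkn2a* dKO. Without *Nf1*/*p53* dKO line 3 the spans in that genotype were 1.65 times for *Idh1*, below the 2.02 times of the other genotype, 1.11 times for *Nadk2* and 1.23 times for *Idh2*. For *Pgd* and *Me2* the wider span was in *Nf1*/*Cdkn2a* dKO (1.44 against 1.26 times, and 1.27 against 1.17 times). Whether the spread itself differed between the genotypes was not tested.

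Divided by the length of the longest coding transcript, levels can be set side by side between genes. Averaged over the 6 lines, the order was *Pgd* (134 CPM per kb), *Nadk* (87.8), *Idh2* (77.1), *G6pdx* (56.9), *Me2* (53), *Idh1* (49.6), *Me1* (35.9), *Nnt* (19.6), *Nadk2* (13.9) and *Me3* (0.133). The order depended on the length chosen: per kb of the union of all exons, a choice made after seeing the data, *Nadk* (73.9), *Idh2* (52), *G6pdx* (49) and *Pgd* (46.1) led, and *Me2* (19.3) came after *Idh1* (41.2) and *Me1* (30.7). The comparisons that follow use the longest coding transcript. *Pgd* was above *Nadk* and *Me1* above *Nnt* in all 6 lines, as was *Nadk2* above *Me3*. The neighbors from *Nadk* to *Me1* were not separated in this way, since each was above the next in 3 to 5 of the 6 lines, as was *Nnt* above *Nadk2*: *G6pdx* exceeded *Me2* in 3 lines, and *Me2* exceeded *Idh1* in 4. *Idh1* ran from 10.5 CPM per kb in *Nf1*/*p53* dKO line 3 to 98.7 CPM per kb in *Nf1*/*Cdkn2a* dKO line 3.

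The make-up of the transcripts differed between the genotypes in the same direction. Of the summed CPM per kb of the 8 NADPH-producing enzymes without the kinases, the 4 cytosolic genes took 61.3, 59.5 and 49.4% for *Nf1*/*p53* dKO lines 1 to 3 and 70.4, 72.7 and 71.2% in the *Nf1*/*Cdkn2a* dKO lines. The *Nf1*/*Cdkn2a* dKO lines were all above the *Nf1*/*p53* dKO lines (SD 1.16 against 6.41 percentage points, n = 3 lines each). Without *Nf1*/*p53* dKO line 3 the SD of that genotype was 1.24 percentage points. *Pgd* alone took 27.4 to 29.8% and 28.3 to 37.6% (means 28.4 and 33.8%, but 17.2 and 19.7% per kb of the union of exons), and *Idh1* took 2.66 to 11.1% and 10.7 to 21.6%. *Me2* took 14.6 to 17.6% in *Nf1*/*p53* dKO and 8.37 to 10.7% in *Nf1*/*Cdkn2a* dKO (means 16.5 and 9.2%, but 10.6 and 5.67% per kb of the union of exons), and *Idh2* took 18.2 to 27.6% and 14.9 to 15.9%. These are shares of RNA and hold no measure of enzyme activity, and *Me2* is counted in full though its enzyme also uses NAD+. The shares are made from the same levels as the fold changes, and no test was made on them.

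**Figure D3:**
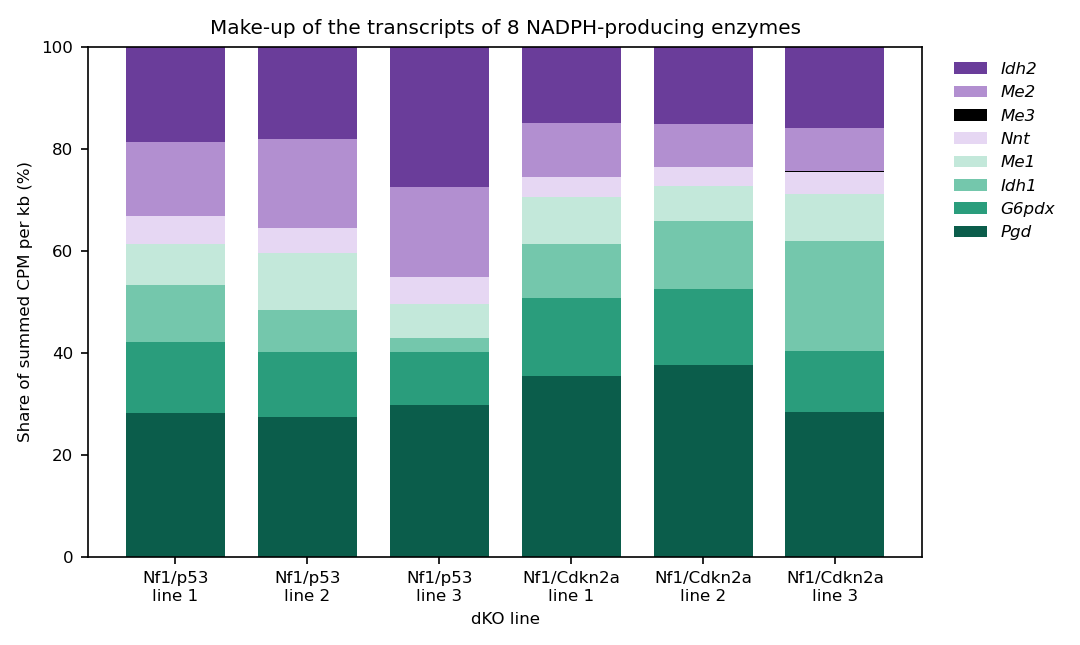
Share of each gene in the summed CPM per kb of 8 NADPH-producing enzymes (y axis, percent) in each of the 6 lines (x axis), cytosolic genes in green at the bottom and mitochondrial genes in purple and black on top. The green part ends at 49.4 to 61.3% for *Nf1*/*p53* dKO and at 70.4 to 72.7% in the *Nf1*/*Cdkn2a* dKO lines.

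Ratios between partners of the 2 compartments do not depend on the scaling of the libraries. *Idh1* over *Idh2*, per kb, was 0.598, 0.447 and 0.0966 for *Nf1*/*p53* dKO lines 1 to 3 and 0.717, 0.882 and 1.35 in the *Nf1*/*Cdkn2a* dKO lines. *Me1* over *Me2* was 0.546, 0.649 and 0.376 against 0.850, 0.825 and 1.08. *Nadk* over *Nadk2* was 6.20, 7.35 and 3.14 against 10.1, 9.50 and 7.59. In each of the 3 pairs all *Nf1*/*Cdkn2a* dKO lines were above all *Nf1*/*p53* dKO lines, by a narrow margin for the kinases (7.59 against 7.35) and *Nf1*/*p53* dKO line 3 was the lowest in each. The ratios are made from the levels given above and are not separate evidence of a difference. No share of non-overlapping ratios over all genes was taken, and the ratios are a description with no test.

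**Figure D4:**
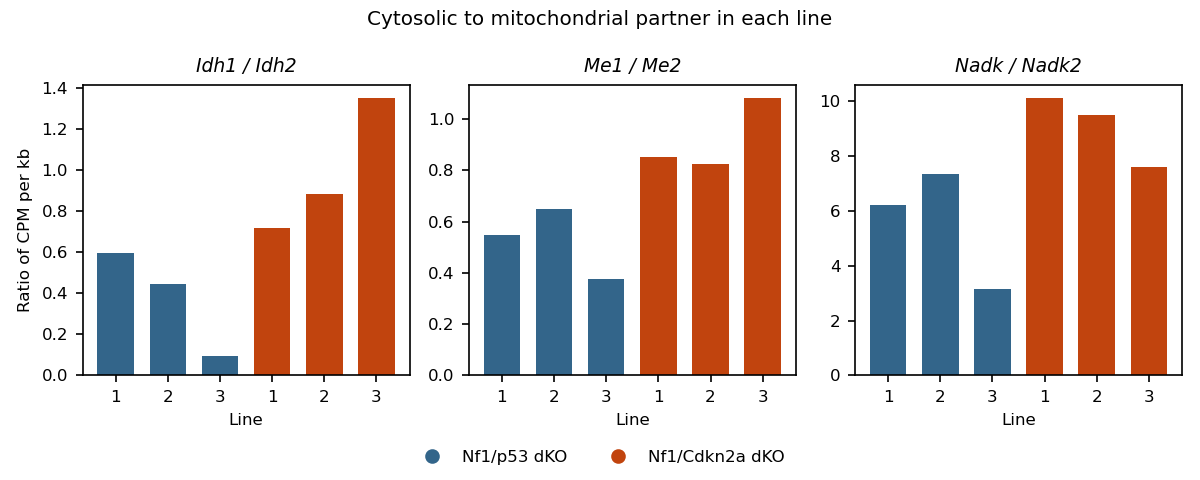
Ratio of the cytosolic to the mitochondrial partner in CPM per kb (y axis, from 0) in each line (x axis; blue, *Nf1*/*p53* dKO; orange, *Nf1*/*Cdkn2a* dKO) for *Idh1* over *Idh2*, *Me1* over *Me2* and *Nadk* over *Nadk2*. In each panel the 3 orange bars are taller than the 3 blue bars, and *Nf1*/*p53* dKO line 3 is the shortest bar.

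Of the genes around these enzymes, the folate pathway, a further source of NADPH through the oxidation of formyl and methylene groups, held 1 gene of 8 that passed the test. *Aldh1l2*, the mitochondrial formyl-folate dehydrogenase that makes NADPH, was at 75.6, 106 and 83.5 CPM in *Nf1*/*p53* dKO and at 31.8, 20.9 and 31.4 CPM in *Nf1*/*Cdkn2a* dKO. It was lower in every *Nf1*/*Cdkn2a* dKO line (log2 fold change -1.66 ± 0.23 SE, adjusted p = 0.0361, edgeR; 1.80% of all genes were called). On the log2 scale it stayed between -1.76 and -1.48 when any 1 line was dropped, but the adjusted p was 0.0486 without *Nf1*/*p53* dKO line 1 and 0.0664 to 0.124 without any of the other 5, so the call needs nearly all lines. Its cytosolic counterpart *Aldh1l1* was at 0.581 to 11.8 CPM and overlapped. The highest of the list was *Mthfd2l* (0.33 ± 0.23 SE, adjusted p = 0.442), and 5 of the 8 had no overlap in the lower direction, as did 16.6% of all genes, among them *Mthfd2* (adjusted p = 0.0554) and *Shmt2* (0.0683), the 2 named after their values were seen. The list's median log2 fold change was -0.48.

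Among the exchange and counterpart enzymes none passed, where 1.80% of all genes tested did. Of 12 genes that carry or convert citrate, isocitrate and malate, 0 were called, with a median log2 fold change of 0.00. At an unadjusted p of 0.05, 1 of the 12 passed, where 22.4% of all genes did. The highest was *Slc25a13*, an aspartate-glutamate carrier (0.73 ± 0.35 SE, adjusted p = 0.273). Of 6 NAD-linked dehydrogenases 0 were called, with a median of -0.11, from *Idh3b*, a subunit of the NAD+-dependent isocitrate dehydrogenase (-0.38 ± 0.17 SE, adjusted p = 0.249), to *Glud1*, glutamate dehydrogenase (0.50 ± 0.27 SE, adjusted p = 0.334). *H6pd*, which runs the first PPP steps inside the endoplasmic reticulum, was at 36.1 to 51.2 CPM against 58.0 to 71.6 CPM (0.60 ± 0.19 SE, adjusted p = 0.133). All adjusted p-values are from edgeR.

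Enzymes that spend NADPH did not move one way. Of 16 genes, 15 were tested and 0 were called, where 1.80% of all genes were, with a median log2 fold change of 0.17. At an unadjusted p of 0.05, 6 passed, where 22.4% of all genes did. The highest was *Nqo1*, a quinone reductase and textbook target of NRF2, at 54.2, 30.6 and 35.7 CPM against 200, 132 and 95.7 CPM (1.83 ± 0.34 SE, adjusted p = 0.0522, edgeR). The lowest was *Pycr1*, the mitochondrial enzyme that uses NAD(P)H to make proline, at 19.0, 27.6 and 14 CPM against 7.91, 8.75 and 6.29 CPM (-1.40 ± 0.30 SE, adjusted p = 0.0689, edgeR). For neither gene was there an overlap between the genotypes.

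Of 10 regulators, 1 was called, where 1.80% of all genes were. It was *Trp53*, the targeted gene itself. That call too was kept in 1 of 6 fits with a line left out, that without *Nf1*/*p53* dKO line 1 (adjusted p from 0.0436 to 0.124, edgeR). *Nfe2l2*, which encodes NRF2 and was chosen here after its values were seen, was at 129, 122 and 131 CPM in *Nf1*/*p53* dKO and at 234, 196 and 270 CPM in *Nf1*/*Cdkn2a* dKO (0.87 ± 0.16 SE, adjusted p = 0.0512, edgeR), while *Keap1*, its inhibitor, overlapped (-0.10 ± 0.21 SE, adjusted p = 0.81). The lowest was *Fyn* (-0.96 ± 0.29 SE, adjusted p = 0.125), a kinase reported to drive NRF2 out of the nucleus. The study singled out *Nfe2l2* on these libraries, so its direction is no independent evidence.

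**Figure D5:**
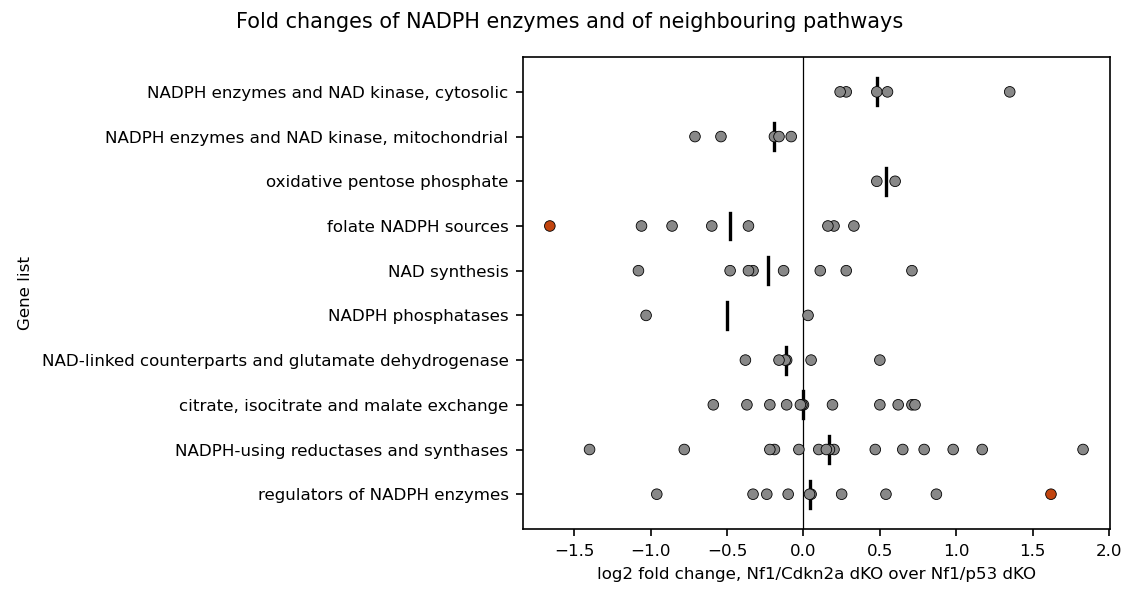
Log2 fold change (x axis, *Nf1*/*Cdkn2a* dKO over *Nf1*/*p53* dKO) of each gene of the cytosolic and mitochondrial groups and of 8 neighboring lists (y axis), with a bar at each list's median. Points in orange passed an adjusted p of 0.05; they are *Aldh1l2* at -1.66 and *Trp53* at 1.62.

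Across the 18 cultures, the genes whose log2 CPM followed *G6pdx* most closely among 13526 genes with a mean of at least 10 counts were *Gbe1* (Pearson r = 0.976), *Slc9a2* (0.974), *Tead4* (0.966), 2310045N01Rik (0.966) and *Efnb2* (0.964). *Pgd* ranked 289 with r = 0.849 and *Idh1* ranked 1086 with r = 0.728, while *Me2* (-0.665) and *Nadk2* (-0.623) ran opposite. The 18 points come from 6 lines, so these values describe the order of lines more than 18 separate tumors.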

How the data were processed

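RNA-seq libraries were made and sequenced by a company from 18 cultures of 6 lines. The authors deposited raw, unnormalized read counts for each gene in each library. Their processing notes name STAR 2.5, CASAVA, DESeq2 1.14.1 and the builds GRCm38 and mm10; the counting tool, the annotation and the use of strand are not given in the sources used here. Gene positions and lengths are from GENCODE M21 (GRCm38).

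The 3 cultures of each line were added up into 1 count per gene, filtered with filterByExpr (minimum count 10, minimum total 15), scaled with TMM and tested with edgeR's quasi-likelihood test (edgeR 4.0.16, limma 3.58.1, DESeq2 1.42.0, R 4.3.3) with Benjamini-Hochberg adjustment over all genes tested. CPM are counts divided by the TMM-scaled library size. Sums of squares and correlations used log2(CPM + 1). Errors on levels are SDs over lines. Cultures of a line differed beyond counting noise (chi-square per degree of freedom 3.5 to 27.1), so none was the same library read again. Separate libraries made from the same RNA would not be told apart by this check. Tables were handled in Python 3.11.15 with pandas 2.3.3 and numpy 2.4.6, and plots drawn with matplotlib 3.10.9. The steps were tested on simulated data, where the genotype changes were larger than those of the 10 genes. Power for changes of their size was not tested. Alternatives were other scalings and filters, DESeq2, limma-voom, replicate blocks, and each line left out.

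The rule named the 10 enzymes, the called genes, the extremes of each list, the targeted genes and the 5 nearest to *G6pdx*. Other genes in the text lie outside this rule, among them *Aldh1l1*, *Keap1*, *Nampt*, *Slc25a51* and several markers. They are to be read as chosen after their values were seen, also where the text does not say so. One single-gene result that this rule names is not reported here. The genes and lists were chosen with earlier results of these data known. The study's statistics give 2 biological replicates per condition, its legends and labels 3 lines in triplicate, which was used.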

Additional observations from a re-analysis of the deposited data

Results flagged for a closer look

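For each of the 10 genes, the 9 cultures of each genotype were checked for a single culture far from the rest by Dixon's test at the 95% level, 20 groups in all, of which chance marks about 1 in 20 where the values are independent. The 9 cultures come from 3 lines that often differed, so that rate is only a rough guide here. One was marked. *Nadk2* in culture 2 of *Nf1*/*Cdkn2a* dKO line 2 was at 34 CPM, below the other cultures of its genotype, which ran from 38.7 to 42.2 CPM. The other cultures of the same line were at 38.9 and 39.4 CPM. The culture's part in the low end of the line was not tested further.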

How the results depend on the processing

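Of 169 refits of the 10 log2 fold changes under other settings, 143 kept their direction and side of the threshold, 22 kept their direction and passed it, and 4 changed sign, all with 1 line left out: *Idh2* at 0.059 (range with a line left out -0.35 to 0.059), *Nnt* at 0.016 (-0.20 to 0.016) and *Me3* at 0.36 and 0.55 (-0.99 to 0.55). Of all genes, 274 were called on 6 lines, 423 with raw totals (which moved the median log2 fold change by -0.13), 6096 and 7171 with 18 cultures as separate samples in edgeR and DESeq2, 2299 with limma-voom, 2055 with DESeq2 on 6 lines, and 0 to 172 with 1 line left out. Among the 10 genes, the calls were 7 with 18 cultures as separate samples in edgeR and in DESeq2 and 4 with limma-voom, against 0. Neither line nor culture numbers paired the samples (correlations of same-numbered lines -0.124, -0.134 and -0.086). With the line number as a block 0 of all genes and 0 of the 10 were called, and with the culture number as a block in limma-voom 2112 and 4. Line differences within each genotype kept their counts of called genes within 1.5 times. Of 100 refitted shares 24 moved by more than the SD between lines; the length of the union of exons and the values without *Nf1*/*p53* dKO line 3 were chosen after seeing the data. *Me3* was not tested with at least 10 counts in every line. Depth limited *Me3* alone.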

Other observations

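NAD+ itself was not measured. Of the transcripts of 10 genes of NAD synthesis, 8 were tested and 0 were called, with a median log2 fold change of -0.23. At an unadjusted p of 0.05, 0 passed as well. Over all genes tested, 1.80% were called and 22.4% passed the unadjusted threshold. *Nampt*, the rate-limiting enzyme of the salvage route, was at 54.3 to 81.1 CPM in *Nf1*/*p53* dKO and at 52.7 to 65.5 CPM in *Nf1*/*Cdkn2a* dKO. The extremes were *Nmnat2*, the cytosolic adenylyltransferase (log2 fold change -1.08 ± 0.46 SE, adjusted p = 0.233, edgeR), and *Nmnat3*, its mitochondrial relative, at 2.45 to 4.20 CPM against 4.89 to 5.87 CPM (0.71 ± 0.31 SE, adjusted p = 0.238, edgeR). *Slc25a51*, the carrier that brings NAD+ into mitochondria, was at 58.2 to 87.2 CPM against 52.3 to 60.7 CPM. *Qprt* and *Nmrk2* had at most 3 and 4 counts in a library.

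The NADPH phosphatases, which undo the kinases, were *Hddc3* and *Noct*. *Hddc3* was at 11.7, 7.21 and 27.7 CPM in *Nf1*/*p53* dKO and at 7.09, 7.46 and 8.34 CPM in *Nf1*/*Cdkn2a* dKO, highest in *Nf1*/*p53* dKO line 3, the line with the highest *Nadk2*. *Noct* overlapped between the genotypes (log2 fold change 0.03 ± 0.28 SE, adjusted p = 0.965, edgeR).

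Among the marker lists, *Myf5*, a muscle determination factor, was at 24.2 to 28 CPM in *Nf1*/*p53* dKO and at most 0.0156 CPM in *Nf1*/*Cdkn2a* dKO. Its log2 fold change was -11.91 ± 0.61 SE (adjusted p = 0.00672, edgeR). The summed level of 6 leukocyte markers was 3.72 to 7.58 CPM in *Nf1*/*p53* dKO and 6.56 to 8.13 CPM in *Nf1*/*Cdkn2a* dKO, with *Cd68* at 1.96 to 7.14 CPM, *Csf1r* up to 3.17 CPM and *Ptprc*, the pan-leukocyte marker, at most 0.563 CPM. The sum of 4 endothelial markers was 1.28 to 2.02 CPM and 0.641 to 1.93 CPM; *Tek* was lower in *Nf1*/*Cdkn2a* dKO (log2 fold change -3.23 ± 0.55 SE, adjusted p = 0.0465, edgeR), *Cdh5* had a log2 fold change of 1.61 ± 0.67 SE (adjusted p = 0.221), and *Pecam1* was at most 0.595 CPM. Epithelial keratins varied between lines of both genotypes, with *Krt8* from 0.484 to 601 CPM.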
